A study of Mus musculus with 2 samples.

Results

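The clustered histone genes comprised every symbol of the deposited gene lists that starts with Hist1h, Hist2h, Hist3h or Hist4h, 67 of 32285 genes. They encode the linker histone H1 (6 genes) and the core histones H2A (18), H2B (18), H3 (12) and H4 (13). In the GENCODE annotation of GRCm38, 54 of them lie on chromosome 13, 10 on chromosome 3, 2 on chromosome 11 and 1 on chromosome 6. A unique molecular identifier (UMI, 1 per captured RNA molecule) was counted for 65 of the 67 in at least 1 barcode. Hist1h2bq and Hist1h2aa had none in either library.

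The cells were living CD45+ leukocytes, sorted as DAPI- events from tumours of B16-F0, a transplantable mouse melanoma line. One wild-type (WT) and 1 knockout (KO) library were made with a droplet assay that primes on poly(A) RNA and reads its 3′ end. The labels state only WT or KO as genotype and give no deleted gene, strain, age, treatment or number of mice per library, so the knockout could not be checked in the counts. They call the cells TIL-Treg although the sort takes all CD45+ cells. A Treg gate that did not use Foxp3 held 126 WT and 266 KO cells, with Foxp3, the transcription factor of that lineage, at 119 CPM (UMIs of a gene scaled to a fixed UMI total for each group of cells) in the WT and 25.5 CPM in the KO library.

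Replication-dependent histone genes supply the proteins that package newly copied DNA, and their transcription is tied to S phase. Their mRNAs normally end not in a poly(A) tail but in a short stem-loop that is bound by SLBP and trimmed by a complex containing the U7 small nuclear RNA. An assay primed on poly(A) therefore sees only forms that carry a tail or an A-rich stretch, and some members are known to make such forms in differentiated cells. The values below are levels of that captured fraction. Because a 3′ assay counts molecules rather than fragments, they were not divided by gene length.

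The WT matrix held 98438084 UMIs over 11432 barcodes and the KO matrix 112544655 over 11398, and 42 barcode sequences occurred in both. After filters on genes, UMIs and mitochondrial share, 9223 WT and 9444 KO cells fell in exactly 1 of the marker gates. In each of the 11 gates checked with markers that the gate did not use, all 6 values (3 genes in 2 libraries) were higher inside than outside the gate. Cells with 2 or more UMIs of Mki67 and Top2a together were called cycling, 482 WT cells (5.23%) and 1015 KO cells (10.7%). Their median depth was 16691 and 19570 UMIs, against 4341 and 5415 in the other cells. With 1 library per genotype there is no replicate and no test. Values in brackets are 95% intervals, which reflect counting error alone.

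The end of the annotated mRNA is shown first, because it bears on what a poly(A) assay can capture. The histone stem-loop, searched on the sense strand with any base allowed at the positions where the loops given here differ, was present in GENCODE transcripts of 35 of the 67 members and in 65 of all 141767 transcripts (0.0458%). Of the 35, 26 carried the loop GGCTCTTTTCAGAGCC, 7 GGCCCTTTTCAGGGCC and 2 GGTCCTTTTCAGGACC. The windows below (GRCm38, RNA sense, 5′ to 3′, capitals mark the loop) are shown for the most abundant H2A and H4 members, 2 abundant H1 members that carry the loop, and 2 H2A members that differed between the libraries.
Hist1h2ap: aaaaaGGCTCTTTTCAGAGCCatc
Hist1h1e: ccaaaGGCTCTTTTCAGAGCCacccac
Hist1h1c: caaaaGGCTCTTTTCAGAGCCaccact
Hist1h4d: ccaaaGGCCCTTTTCAGGGCCactacc
Hist1h2ab: acaaaGGCTCTTTTCAGAGCCacccac
Hist1h2ac: ccaaaGGCTCTTTTCAGAGCCcccact
Hist1h2ap (chromosome 13, 21833026 to 21833507, minus strand) and Hist1h2ab (chromosome 13, 23751126 to 23751598, plus strand) end 3 and 11 bases after the loop in the annotation. Hist1h1e (chromosome 13, 23620629 to 23622558, minus strand), Hist1h1c (chromosome 13, 23738808 to 23740367, plus strand), Hist1h4d (chromosome 13, 23581598 to 23582735, plus strand) and Hist1h2ac (chromosome 13, 23681467 to 23683948, minus strand) have transcripts that run 1153, 840, 770 and 2010 bases beyond it. In all, 18 members ended within 60 bases of the loop, 17 extended further, 19 had a 3′ UTR without the motif and 13 had no annotated 3′ UTR.

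Clustered histone RNA was concentrated in cycling cells of both libraries. Summed over the 67 genes it reached 6695 CPM in cycling and 1094 CPM in other cells of the WT library, a 6.12-fold difference. The KO library held 5475 and 735 CPM, a 7.45-fold difference. These sums pool all gates, and the other cells included 3446 WT but 410 KO cells of the B gate. On the log2 scale the pooled folds were 2.61 and 2.90. Without that gate, a choice made after the data were seen, the log2 folds were 3.12 in the WT and 2.95 in the KO library. With equal weight to each gate they were 3.20 and 2.87, so the order of the libraries turned in both cases. Cycling cells, a small minority, supplied 54.7% of the family's UMIs in gated WT cells and 75.9% in KO cells. Even so, the level varied widely within them. The median cycling cell held 1583 CPM in the WT and 1522 CPM in the KO library, while 21.4% and 18.8% of cycling cells exceeded 10000 CPM. Only 3 WT and 1 KO cells did so among the others.

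Single members are described as higher or lower where CPM differed by 1.5-fold or more and the counting interval left out equality, which is a threshold on size. Members needed 20 UMIs over the groups compared, and 61 of the 67 had them for cycling against other cells in each library. In the WT library 53 were higher and 1 was lower in cycling cells, against 19.5% of all 13623 measured genes higher and 17.7% lower. In the KO library it was 54 and 1, against 19.4% and 24.8% of 13881 genes. The median fold over measured members, with all gates pooled, was 6.59 in the WT and 7.96 in the KO library. The member lower in cycling cells was in both libraries Hist3h2a, an H2A gene outside the main cluster, singled out here after its values were seen. It stood at 10.2 CPM in cycling and 24.4 CPM in other WT cells, and at 7.46 and 17.8 CPM in the KO library. The exons of Hist3h2a overlap those of Trim17, a gene outside the family, on the same strand. The division of reads between Hist3h2a and Trim17 is therefore uncertain, and its part in the lower level was not tested.

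**Figure D1:**
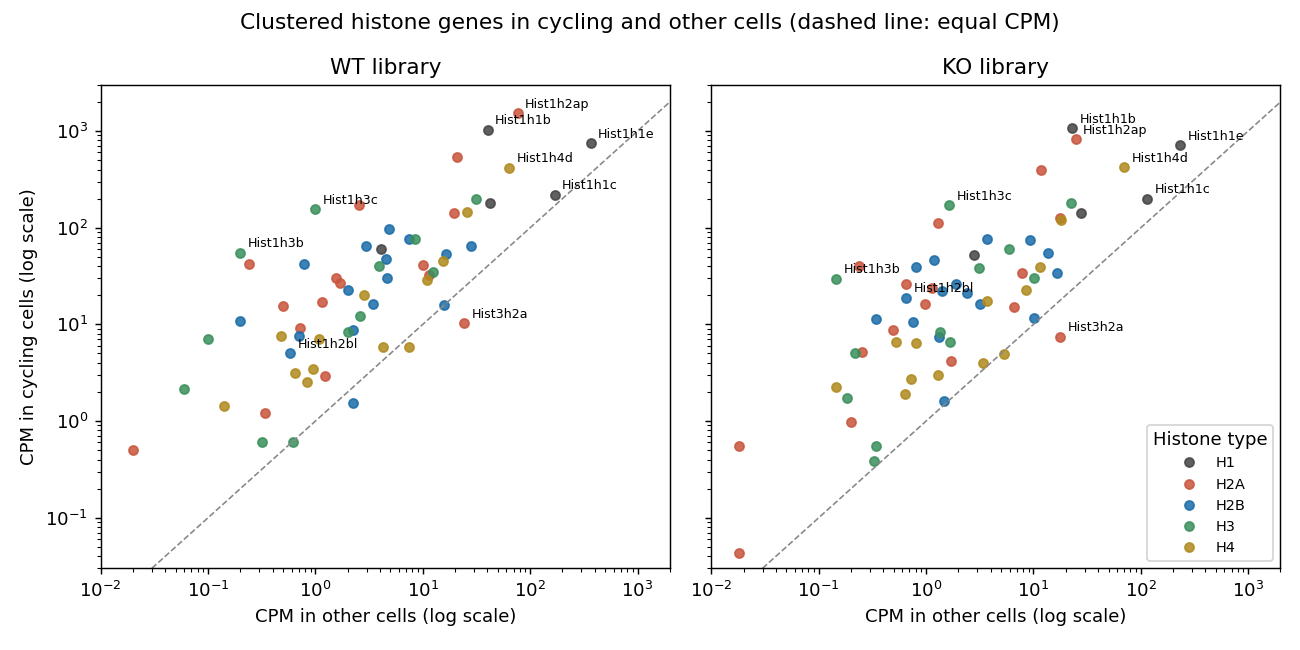
Each point is 1 clustered histone gene, with its CPM in other cells on the x axis and in cycling cells on the y axis, both on log scales, for the WT (62 genes above 0 in both) and KO (63) library; colours give the histone type and the dashed line equal CPM. Most genes lie far above the line, and Hist1h1c lies close to it. Of the measured genes, 4 in the WT and 2 in the KO library lie below it, Hist3h2a furthest in both.

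The linker histone genes formed the largest share outside the cycling cells. H1 genes, whose products bind the DNA between nucleosomes, made up 57.2% of the family's UMIs in other WT and 54.5% in other KO cells, against 33.6% and 39.7% in cycling cells. Hist1h1e was the most abundant member in other cells, at 369 CPM in the WT and 232 CPM in the KO library, and rose 2.03-fold and 3.06-fold in cycling cells. Its exons overlap those of Hist1h2be on the same strand, so the division of reads between them is uncertain. Hist1h1c followed with 170.3 and 115 CPM in other cells and was only 1.29-fold and 1.73-fold higher in cycling cells. Hist1h1b behaved differently from both. It held 40.4 and 23.0 CPM in other cells but 1036 and 1068 CPM in cycling cells, a 25.7-fold and 46.5-fold rise. Hist1h1d lay between these, 4.26-fold and 5.17-fold higher in cycling cells. Hist1h1t, a testis form, totalled 16 UMIs over all barcodes.

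Each core histone type was scarcer than H1 outside cycling cells, and each rose within them. H2A genes together were 15.0-fold higher in cycling than in other WT cells and 17.5-fold higher in the KO library. H3 genes were 9.28-fold and 11.3-fold, H2B genes 5.83-fold and 6.90-fold, and H4 genes 5.16-fold and 5.27-fold higher. H1 genes together were 3.59-fold and 5.42-fold higher with all gates pooled, so in the KO library their pooled fold exceeded that of H4. In the CD8 T gate alone H1 genes stood at 2739 and 392 CPM in cycling and other WT cells. The KO values there were 2330 and 352 CPM. In other cells of the B gate H1 genes stood at 1303 CPM in the WT and 918 CPM in the KO library. The most abundant core gene in WT cells was Hist1h2ap, encoding H2A, with 1520.4 CPM in cycling and 76.7 CPM in other cells. Next in cycling WT cells came Hist1h2ae, another H2A gene, at 539 CPM and Hist1h4d, an H4 gene, at 417 CPM. In other cells Hist1h4d held 64.0 CPM in the WT and 69.8 CPM in the KO library, where Hist1h2ap held 24.7 CPM. Some H3 genes were nearly restricted to cycling cells. Hist1h3c stood at 155 and 1.00 CPM in cycling and other WT cells and at 171 and 1.65 CPM in KO cells. Hist1h3b stood at 55.0 and 0.20 CPM in WT cells and at 29.8 and 0.145 CPM in KO cells. The H3 genes did not all share this pattern, since Hist1h3e was 6.25-fold and 8.09-fold higher in cycling cells from 31.4 and 22.4 CPM in the others. Hist1h2ba, known as a testis form of H2B, had 1 UMI in all.

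The fold between cycling and other cells differed with the annotated tail. Members that end at the loop had a median fold of 10.1 in the WT and 13.9 in the KO library over 17 measured genes. Those that extend past it had 2.83 and 3.06 over 17 measured genes. Members without the motif had 15.0 and 13.7 where no 3′ UTR was annotated (11 measured) and 7.14 and 8.45 where one was (16 measured). The polyadenylation signal AATAAA lay in the last 50 bases of a transcript of 15 members (13 measured), and in 26.6% of all GENCODE transcripts. The median fold was 1.38 and 1.73 with the signal and 9.48 and 9.84 without it (48 measured). The folds of the 2 sets overlapped. In the WT library they ran from 0.42 to 25.7 with the signal and from 1.90 to 275 without it. Hist1h2ae had the signal and the 25.7-fold difference. Hist1h2bp, outside the naming rule, also had the signal and was 10.7-fold and 13.9-fold higher in the WT and KO library. These are descriptions of an annotation whose agreement with the RNA in these cells was not tested.

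Many members share much of their sequence with other genes, which limits how well short reads tell them apart. The stretches counted here cover whole transcripts and not only the 3′ end that the assay reads. At least 50% of all 60-base stretches were shared with another gene for 31 of the 67 members, and the median shared portion was 44.5%. Hist2h2aa2 and Hist2h3c1 shared all of theirs, both with Gm20634, and 5 members shared none. Sharing includes genes annotated at the same place, since exons of Gm20634 overlap those of Hist2h3c1 on the same strand. Hist1h2ap shared 92.9% with Hist1h2ao, its closest copy, which had 12 WT and 23 KO UMIs in cycling cells, while Hist1h2ap had 15007 and 19291. Reads that fit more than 1 gene are normally dropped in this kind of counting. Levels of members with close copies are therefore uncertain, and those of Hist1h2bq, 96.8% shared with Hist1h2br, cannot be read as absence.

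Cycling cells of different gates carried different amounts of histone RNA. In the WT library, cycling cells of the CD8 T gate held 7987 CPM [7903, 8071], and those of the CD4 T and Treg gates, with 35 and 37 cells, 9418 and 9453 CPM. NK cells held 6466 CPM, conventional dendritic cells (cDC) 4896 CPM and the monocyte and macrophage (Mono/mac) gate 1287 CPM [1228, 1348]. The KO library gave the same low place to the Mono/mac gate, at 1211 CPM [1161, 1263], against 4720 CPM [4589, 4854] in cDC and 5868 CPM [5828, 5908] in CD8 T cells. Cycling Mono/mac cells were only 2.38-fold above other cells of that gate in each library, compared with 10.8-fold and 8.74-fold for CD8 T and 8.46-fold and 8.07-fold for cDC. The summed S-phase list was also lower there. It stood at 968 CPM in WT and 1153 CPM in KO cycling Mono/mac cells, and at 2729 and 2840 CPM in cycling CD8 T cells. In cycling CD4 T cells it stood at 1201 CPM in the WT and 2373 CPM in the KO library. Their histone RNA stood at 9418 and 6396 CPM, so the list and histone RNA did not run in parallel in all gates. The summed G2M list stood closer, at 2029 and 1894 CPM in Mono/mac and at 2383 and 2422 CPM in CD8 T cells.

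Outside the cycling cells the B gate was highest. Other B cells held 2096 CPM [2070, 2122] in the WT and 1466 CPM [1411, 1523] in the KO library. Other cells of the NK gate had 1169 and 1095 CPM, those of the 5 T gates between 633 and 852 CPM, and those of the Mono/mac and cDC gates between 508 and 585 CPM. Hist1h1e was also highest in the B gate, with 778 CPM in other B, 460 CPM in other NK, 218 CPM in other CD8 T and 134 CPM in other Mono/mac cells of the WT library. In the KO library these were 544, 429, 187 and 135 CPM. Among gates of 30 or more other cells it was the first member in all except WT cDC and neutrophils and KO plasmacytoid dendritic cells, where Hist1h1c led. Neutrophils, 158 WT cells, had a makeup of their own: Hist1h1c stood at 347 CPM and Hist1h2bc, an H2B gene, at 335 CPM, while Hist1h1e stood at 59.2 CPM. Hist1h2bc was 41.8 CPM in other Mono/mac, 34.3 CPM in other cDC and 9.66 CPM in other CD8 T cells of the same library.

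**Figure D2:**
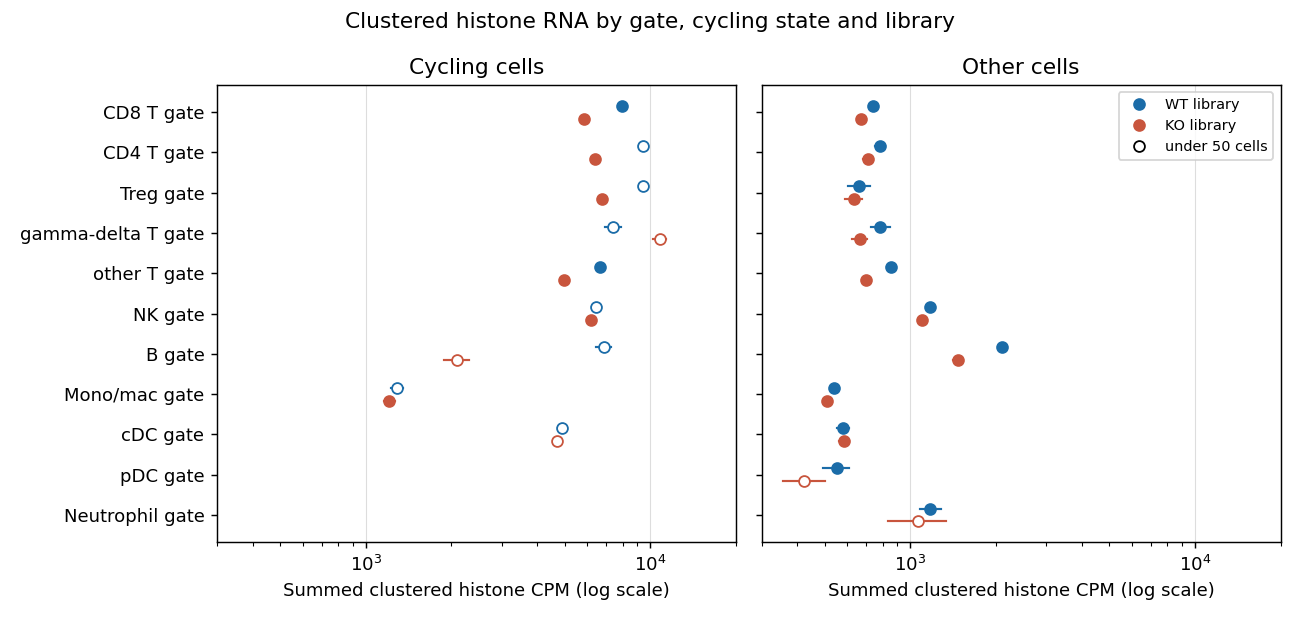
Points give the summed CPM of the 67 clustered histone genes (log x axis) for each gate in cycling (left) and other (right) cells of the WT and KO library, with bars for 95% Poisson intervals and open points under 50 cells. In cycling cells the Mono/mac gate is lowest in both libraries, and in other cells the B gate is highest.

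Among cells of exactly 1 gate, the KO library held less clustered histone RNA than the WT library within each state. The amounts depended on the cells included. Over all barcodes, without a split by state, the order was the opposite. Clustered histone UMIs made up 0.188% of all UMIs in the WT and 0.207% in the KO library. Of the gated cells, 5.23% were cycling in the WT and 10.7% in the KO library. In cycling cells the log2 ratio of KO to WT was -0.29 [-0.30, -0.28], and in other cells -0.57 [-0.59, -0.56]. Without Hist1h2ap, a choice made after the data were seen, the cycling ratio was -0.15 [-0.17, -0.14]. The B gate, highest in histone RNA among other cells, held 3446 WT but 410 KO other cells. Without it, also a later choice, the ratio in other cells was -0.12 [-0.14, -0.10]. With equal weight to each gate it was -0.22. With no lineage gate at all, so that cells in 2 or more gates and in none were included, the cycling ratio turned to 0.10 [0.09, 0.11]. Cells thinned to 3000 UMIs, with the cycling gate at 1 UMI, gave -0.061 for cycling cells.

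Within gates the ratios of cycling cells differed. T-cell gates other than gamma-delta T were below 0. CD8 T cells gave -0.44 [-0.46, -0.43] (204 WT and 555 KO cells) and CD4 T cells -0.56 (35 and 79). Treg cells gave -0.48 (37 and 87) and the remaining T cells -0.42 (63 and 109). NK cells gave -0.06 [-0.13, 0.00] (41 and 56), Mono/mac cells -0.09 [-0.18, 0.00] (49 and 67) and cDC -0.05 [-0.11, 0.01] (34 and 43). Only the CD8 T and remaining T gates reached 50 cycling cells in both libraries, and the intervals do not cover variation between cells. Cycling gamma-delta T cells (3 and 10) gave 0.54 and cycling B cells (16 and 9) -1.72, from few cells. In other cells the gates with 50 or more cells in each library ran from -0.52 [-0.57, -0.46] in B to 0.01 [-0.08, 0.11] in cDC, with -0.14 in CD8 T, -0.14 in CD4 T, -0.06 in Treg, -0.24 in gamma-delta T, -0.29 in remaining T, -0.09 in NK and -0.09 in Mono/mac cells.

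RNA of other cell types moved between the libraries. In other cells the 5 erythroid genes summed to 846 CPM in the WT and 77.0 CPM in the KO library. Of these, 5 of 5 were lower, against 6.75% of all measured genes, led by the globin gene Hbb-bs at 413 and 44.3 CPM. In the B gate they summed to 702 and 6.10 CPM, in the CD8 T gate to 519.8 and 2.64 CPM and in the CD4 T gate to 18.9 and 1.63 CPM. In cycling cells the sums were 14.2 and 1.33 CPM. The 5 melanoma genes summed to 11.1 and 9.23 CPM in other and to 10.3 and 3.60 CPM in cycling cells. Of the 5 fibroblast genes, Dcn was at 0 in both states and libraries and all summed to under 1 CPM. Their part in the histone ratios was not tested.

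Of the 67 members, 59 reached 20 UMIs in cycling cells over both libraries. Of these, 1 was higher and 8 were lower in the KO library, against 2.42% and 7.75% of all 12342 measured genes. With no lineage gate 3 were higher and 3 lower, and in thinned cells 4 were lower. The median log2 ratio was -0.20, with -0.01 over all genes. The sole higher member was Hist1h2bl, an H2B gene (chromosome 13, 21715763 to 21716143, minus strand), with 50 UMIs or 5.07 CPM in the WT and 442 UMIs or 19.0 CPM in the KO library. Its log2 ratio was 1.90 [1.48, 2.36]. The lower members included 5 H2A genes, 2 H2B genes and 1 H3 gene. The H2A genes were Hist1h2ap, from 1520.4 to 828 CPM (-0.88 [-0.91, -0.85]), Hist1h2ab, from 170.4 to 111 CPM (-0.62 [-0.71, -0.53]), Hist1h2ac, from 32.3 to 15.1 CPM (-1.10 [-1.32, -0.87]), Hist1h2ai, from 17.1 to 8.84 CPM (-0.95 [-1.25, -0.65]), and Hist1h2ad, from 9.22 to 5.15 CPM (-0.84). The last falls outside the naming rule and is given because its values were seen. The H2B genes were Hist1h2bc, from 64.1 to 33.7 CPM (-0.93 [-1.08, -0.77]), and Hist1h2bn, from 47.8 to 25.9 CPM (-0.88 [-1.06, -0.71]). The H3 gene was Hist1h3b (-0.89 [-1.05, -0.72]).

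The histone types differed in cycling cells. Summed H2A was 2600 CPM in the WT and 1638 CPM in the KO library, a log2 ratio of -0.67 [-0.69, -0.64]. H2B had -0.25, H3 -0.14, H4 -0.08 and H1 -0.05 [-0.07, -0.03]. Other abundant members lay near equality. Hist1h1b had 0.04, Hist1h1e -0.07, Hist1h4d 0.02, Hist1h3c 0.14, Hist1h1c -0.15 and Hist1h3e -0.12. Hist1h2ae (-0.46 [-0.51, -0.41]) and Hist1h1d (-0.35) stayed inside the 1.5-fold bound, as did Hist2h2ac (-0.17), Hist1h4h (-0.26), Hist1h2an (-0.19) and Hist1h2bb (-0.48). In cycling CD8 T cells the first member was Hist1h2ap in the WT library, at 23.4% of family UMIs, and Hist1h1b in the KO library, at 19.9%.

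In other cells 57 members were measured, of which 2 were higher and 18 lower in the KO library, against 5.6% and 6.75% of 14463 genes. The median log2 ratio was -0.46, with 0.05 over all genes. The higher members were Hist1h3c, at 1.00 and 1.65 CPM (0.72 [0.21, 1.25]), and Hist1h2ag, an H2A gene, at 0.50 and 0.98 CPM (0.97 [0.26, 1.72]). The lower ones included Hist1h2ap, from 76.7 to 24.7 CPM (-1.64 [-1.73, -1.55]), and the linker genes Hist1h1b (-0.81), Hist1h1e (-0.67) and Hist1h1d (-0.63). Within gates Hist1h1e and Hist1h1d lay nearer to 0 in most cases. Hist1h1e had -0.51 in B, -0.22 in CD8 T, -0.10 in NK, 0.00 in Mono/mac and 0.22 in cDC, and Hist1h1d had -0.49, -0.02, -0.01, 0.10 and 1.02 in the same gates. Among the lower H2A and H2B genes were Hist1h2ae (-0.82), Hist1h2an (-1.26), Hist1h2bb (-1.33) and Hist1h2bn (-1.25). Within gates Hist1h2ae ran from -0.71 to 0.07, and 2 of 8 intervals lay below 0. Hist1h2an ran from -1.07 to 0.00 in 3 gates, with 0 intervals below 0. Hist1h2bb had 1 of 5 and Hist1h2bn 4 of 5 intervals below 0. The pooled values mix gates in unlike numbers, with 3446 WT but 410 KO cells in the B gate. Of the 8 members lower in cycling cells 7 were also lower in the pooled other cells. The exception was Hist1h3b, which was not measured in other cells. Both states share no cells, but they share the libraries. In other B cells alone 41 members were measured, 0 were higher and 9 lower, against 4.13% and 5.66% of 10441 genes.

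**Figure D3:**
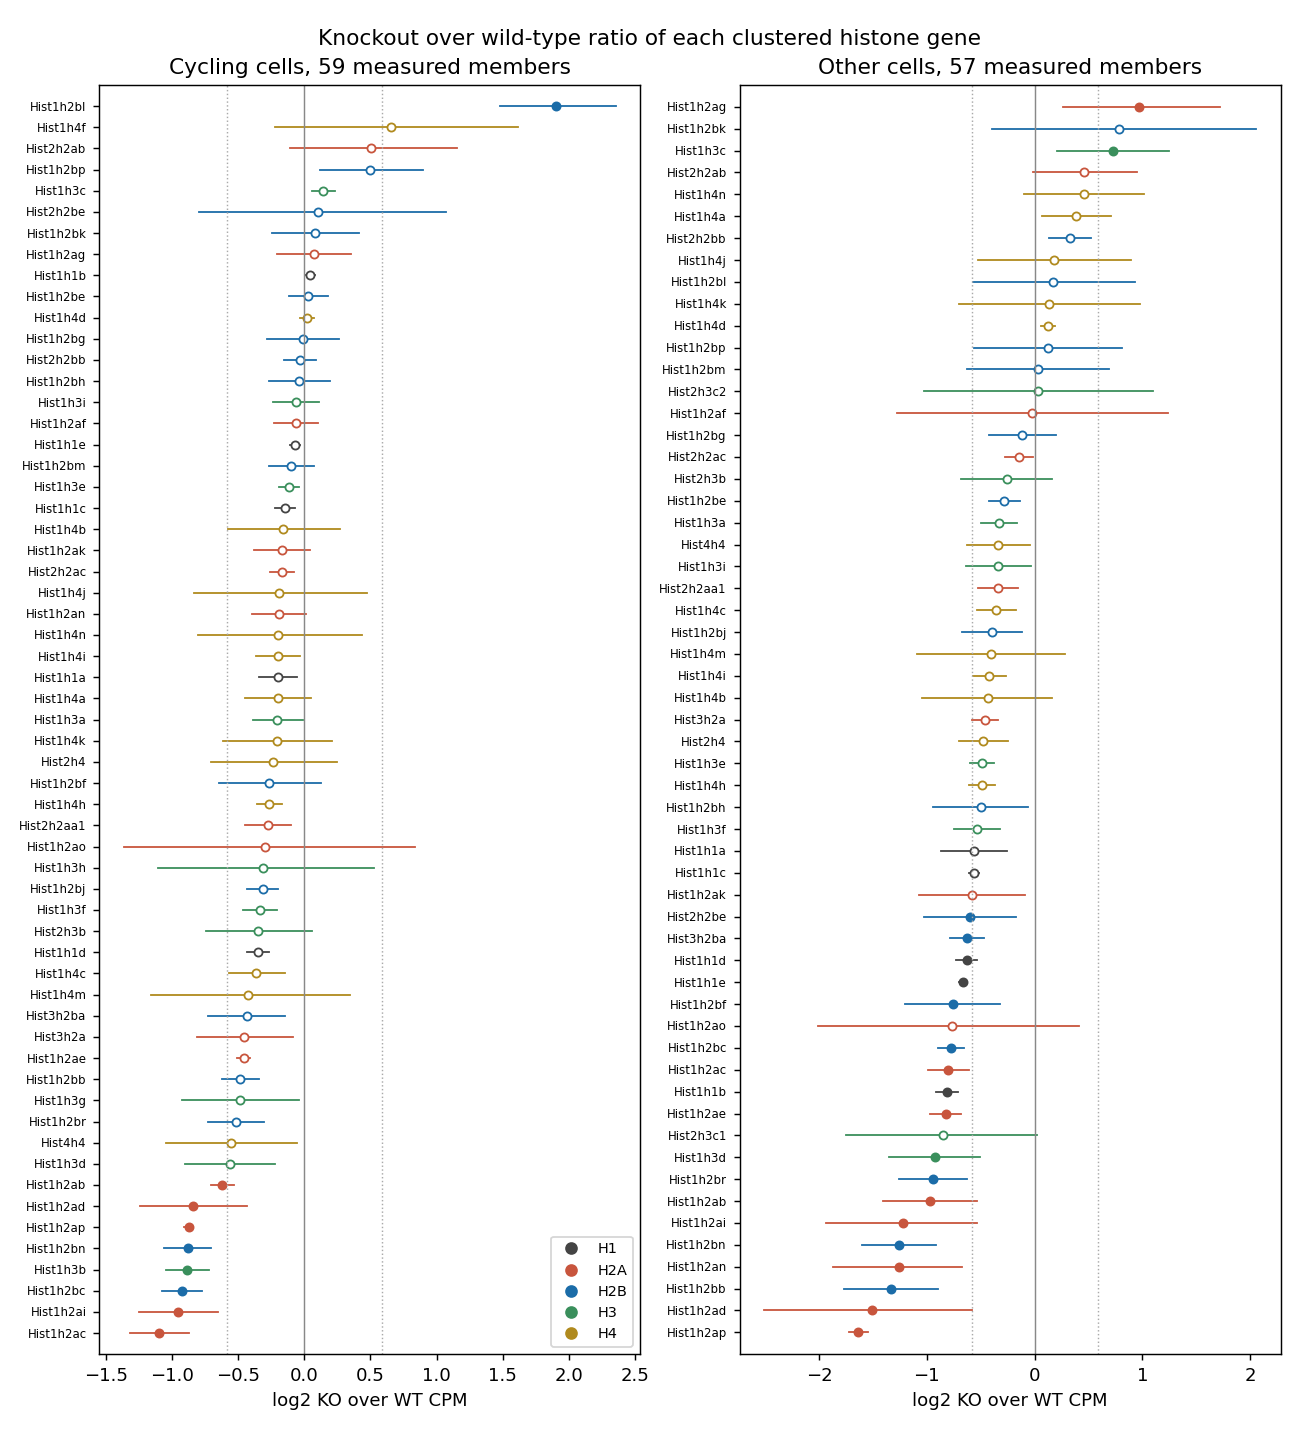
Log2 ratio of KO to WT CPM for each member with 20 UMIs or more, in cycling (left) and other (right) cells, with bars for 95% counting intervals, colours for the histone type, filled points for members past the size threshold and dotted lines at 1.5-fold. Hist1h2bl stands alone on the right in cycling cells, and Hist1h2ap is lowest in other cells.

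In other cells of the CD8 T gate 43 members were measured, 3 of them higher and 3 lower, against 3.56% and 2.39% of genes. The higher members were Hist1h3c (1.19), Hist1h2ag (2.24, from 3 and 18 UMIs) and, outside the naming rule, Hist1h2bj (0.76), and the lower ones Hist1h2ap (-0.93), Hist1h2bn (-0.91) and, outside the rule, Hist4h4 (-0.68). In NK cells 1 of 42 was higher (Hist1h2bf, outside the rule, 1.22) and 3 were lower (Hist1h2ap, Hist1h2bn and Hist1h2ae), against 1.97% and 1.71%. In Mono/mac cells 0 of 39 were higher and 2 lower (Hist1h2ap and, outside the rule, Hist2h2be), against 2.76% and 4.07%. In CD4 T cells 1 of 29 was higher (Hist2h2bb, outside the rule, 0.59) and 6 were lower, against 4.27% and 2.45%. Hist1h2ap was among the lower members in each of these gates.

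In cycling CD8 T cells, the gate with the most cycling cells, 57 members were measured. There 2 were higher and 11 lower in the KO library, against 2.38% and 3.8% of 10934 genes. Of these 11, 7 were also lower over all cycling cells. The higher ones were Hist1h2bl, at 5.07 and 21.7 CPM (2.10 [1.47, 2.79]), and, outside the naming rule, Hist1h2bp, at 6.22 and 11.6 CPM (0.89 [0.30, 1.54]). The lower ones included Hist1h2ai (-1.27), Hist1h3b (-1.15), Hist1h2bn (-1.12), Hist1h2ac (-1.08), Hist1h2ap (-1.05) and Hist1h2ab (-0.84). The erythroid sum of these cells was 3.69 CPM in the WT and 1.35 CPM in the KO library.

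Hist1h2ap had a lower level in the KO library in each gate with enough cells. It and Hist1h2bl share 92.9% and 79.2% of their 60-base stretches with other genes. The labels give no strain for either library, and whether sequence differences between the mice moved reads among such copies cannot be examined in count tables. In cycling cells all 7 gates with 30 or more cells in each library lay below 0 with intervals that left out 0, from -1.19 in CD4 T to -0.48 in cDC. The 4 T gates ran from -1.05 to -1.19, while NK, Mono/mac and cDC cells gave -0.50 [-0.65, -0.34], -0.55 [-0.79, -0.31] and -0.48 [-0.63, -0.34]. In other cells it lay below 0 in 10 of 10 gates and 7 of these intervals left out 0. The values ran from -1.47 in B, from 174.9 to 63.2 CPM, to -0.51 in Treg cells. As a share of family UMIs, which does not depend on the total of all genes, it was 23.4% [22.9, 23.8] in WT and 15.4% [15.1, 15.6] in KO cycling CD8 T cells. In cycling CD4 T cells the shares were 20.9% and 13.4%, and in cycling Mono/mac cells 17.2% and 12.5%.

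In cycling cells, other named members also had 1 sign across the gates measured. Hist1h2ab lay below 0 in 7 of 7 gates, with 5 intervals leaving out 0, and Hist1h2ai in 4 of 4, with 1. Hist1h2ac lay below 0 in 7 of 7 gates of cycling cells, with 4 intervals leaving out 0, and Hist1h2bc in 7 of 7, with 5. Hist1h2bc went from 122 to 46.0 CPM in cycling Mono/mac cells (-1.41), from 132 to 57.1 CPM in cDC (-1.21) and from 67.9 to 27.2 CPM in NK cells (-1.32), against -0.53 in CD8 T cells. Hist1h2bn was below 0 in 6 of 6 gates of cycling cells with all 6 intervals leaving out 0. Except for Hist1h2ai, measured in 1 gate, the signs of these members were mixed in other cells. Hist1h2ab was above 0 in 2 of 4 gates. Hist1h2ac was above 0 in 1 of 7 gates (B, 0.20 [-0.37, 0.73]), Hist1h2bc in 2 of 8 (Treg, 1.00 [-0.47, 2.78], and cDC, 0.20 [-0.19, 0.59]) and Hist1h2bn in 1 of 5 (Mono/mac, 0.34 [-1.09, 1.90]). Hist1h2bl was above 0 in 4 of 4 gates of cycling cells that held 20 UMIs, from 1.15 [-0.13, 2.70] in Treg to 2.10 in CD8 T, and 3 intervals left out 0. In other cells it was near the limit of detection, with 29 WT and 36 KO UMIs in all, and no difference was detectable at this depth (0.17 [-0.58, 0.93]). Hist1h1b had no common sign. Its ratio in cycling cells was -0.16 in CD8 T and 0.67 in Mono/mac cells. In other cells it was -0.70 in B, -0.68 in CD4 T and -0.60 in remaining T cells, but 0.57 in CD8 T and 0.85 in cDC.

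**Figure D4:**
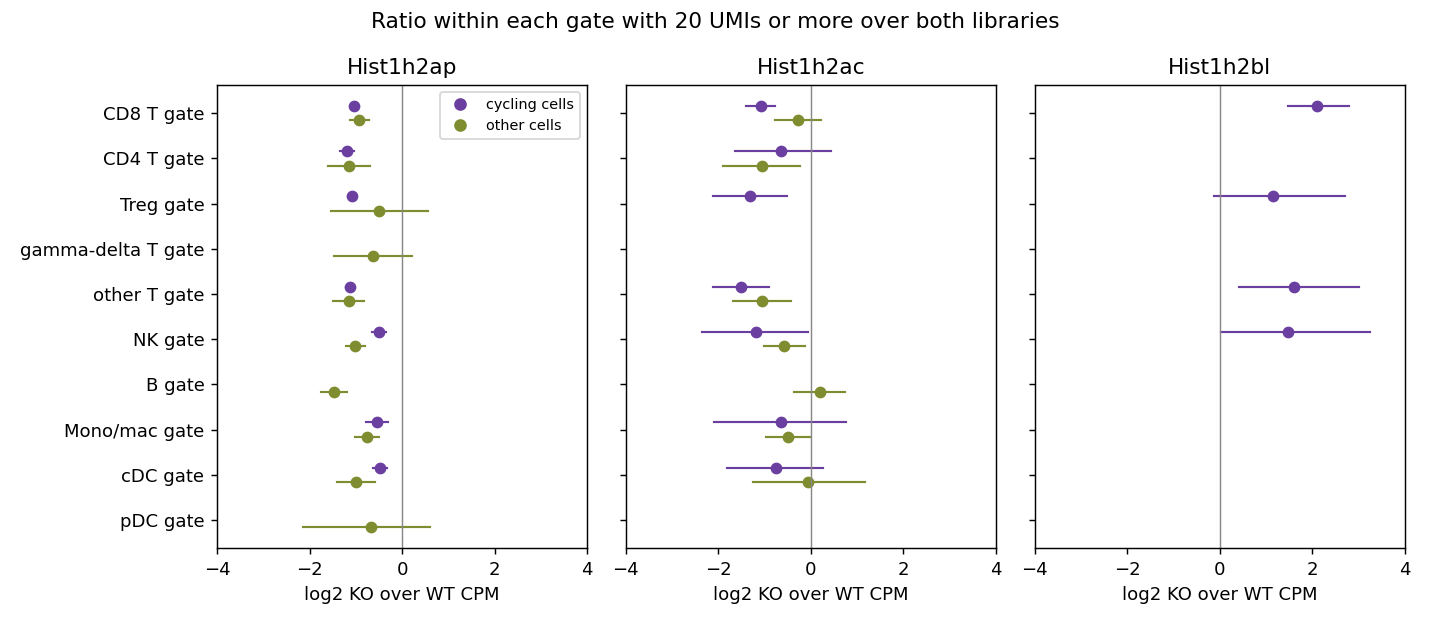
Log2 ratio of KO to WT CPM of Hist1h2ap, Hist1h2ac and Hist1h2bl within each gate that held 20 UMIs or more over both libraries, with 95% counting intervals, in cycling and other cells. All points of Hist1h2ap lie left of 0 and all points of Hist1h2bl lie right of it.

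Histone genes often sit head to head and share 1 promoter region, and 12 such pairs of members lay within 500 bases of each other. In 9 of them both genes were measured in cycling cells, and in 5 of the 9 the ratios had the same sign. The 3 pairs described here were picked after their values were seen. Hist1h2ac and Hist1h2bc, 250 bases apart, had log2 ratios of -1.10 and -0.93. Hist1h2ap and Hist1h2br, 235 bases apart, had -0.88 and -0.52. Hist1h2bl and Hist1h2ai, 278 bases apart, had 1.90 and -0.95. The upstream windows of Hist1h2ac, from a pair with the same sign, and of Hist1h2bl, from the pair with opposite signs, are given here (RefSeq on GRCm38.p6, minus strand, 250 bases before to 50 after the start, 5′ to 3′). They lie at chr13:23683910-23684209 and chr13:21716134-21716433. Capitals mark the CCAAT box, the TATA box written TATAAA and the octamer ATTTGCAT on either strand, and no marked motif overlaps another.
Hist1h2ac: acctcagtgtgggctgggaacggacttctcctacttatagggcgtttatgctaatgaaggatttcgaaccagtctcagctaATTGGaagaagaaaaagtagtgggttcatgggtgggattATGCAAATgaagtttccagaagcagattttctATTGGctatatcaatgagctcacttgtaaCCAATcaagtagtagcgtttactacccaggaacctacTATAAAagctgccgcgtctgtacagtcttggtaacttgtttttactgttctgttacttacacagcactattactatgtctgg
Hist1h2bl: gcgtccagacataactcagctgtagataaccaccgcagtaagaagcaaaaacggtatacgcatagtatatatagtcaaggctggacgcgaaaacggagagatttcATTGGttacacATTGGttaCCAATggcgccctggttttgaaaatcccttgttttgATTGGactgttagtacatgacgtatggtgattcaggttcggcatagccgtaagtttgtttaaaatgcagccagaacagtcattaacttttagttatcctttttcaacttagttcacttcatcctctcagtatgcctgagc
The Hist1h2ac window held 3 CCAAT boxes, 1 TATAAA and 1 octamer, a motif known from H2B promoters, and the Hist1h2bl window held 4 CCAAT boxes and neither of the others.

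The same motifs were counted over the promoters of 60 members, those of the 61 matched by name whose window lay at the member's own locus. CCAAT was present in all 6 H1, 16 H2A, 16 H2B and 10 H3 promoters but in 3 of 12 H4 promoters (25%), and in 37.9% of all 27025 promoters. ATTTGCAT occurred in 7 of 16 H2A (43.8%) and 6 of 16 H2B promoters (37.5%), in 0 of the H1, H3 and H4 promoters, and in 1.75% of all. Windows of head-to-head H2A and H2B genes can overlap, so the same motif copy can count for both types. The octamer of Hist1h2ae and Hist1h2bg is such a case. TATAAA occurred in 58.3% of member promoters and in 14.2% of all. A match is a run of letters and does not show that a factor binds there.

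Histone RNA was uneven along the balance of S-phase and G2M list UMIs within cycling cells. Cycling cells with 5 or more UMIs of the S-phase or G2M list were split into 3 equal groups by the S-phase share of these UMIs, a range rather than a cell type. The cuts fell at 0.411 and 0.781, and 249 of the 1229 cells lay within 0.05 of one. The group with the lowest S-phase share held 8834 CPM in the WT and 6637 CPM in the KO library. The middle group held 8883 and 7137 CPM, and the group with the highest share only 2299 and 2532 CPM. Hist1h2ap followed the same order, at 1909.5, 2123 and 527 CPM in the WT library and 982, 1120.2 and 366 CPM in the KO library. Hist1h1b did so too, at 1211, 1543 and 331 CPM in the WT and 1157, 1518 and 499.6 CPM in the KO library. The group with the highest share was also lowest in the genes of the cycling gate. Mki67 stood there at 116 and 115 CPM, against 660 and 643 CPM in the group with the lowest share. Top2a stood at 195 and 255 CPM, against 668 and 770 CPM. The share of list UMIs does not by itself place a cell in S phase. The KO to WT ratios of the family were -0.41 [-0.43, -0.39], -0.32 [-0.33, -0.30] and 0.14 [0.09, 0.18] from the lowest to the highest share. The difference between these ratios was not tested.

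**Figure D5:**
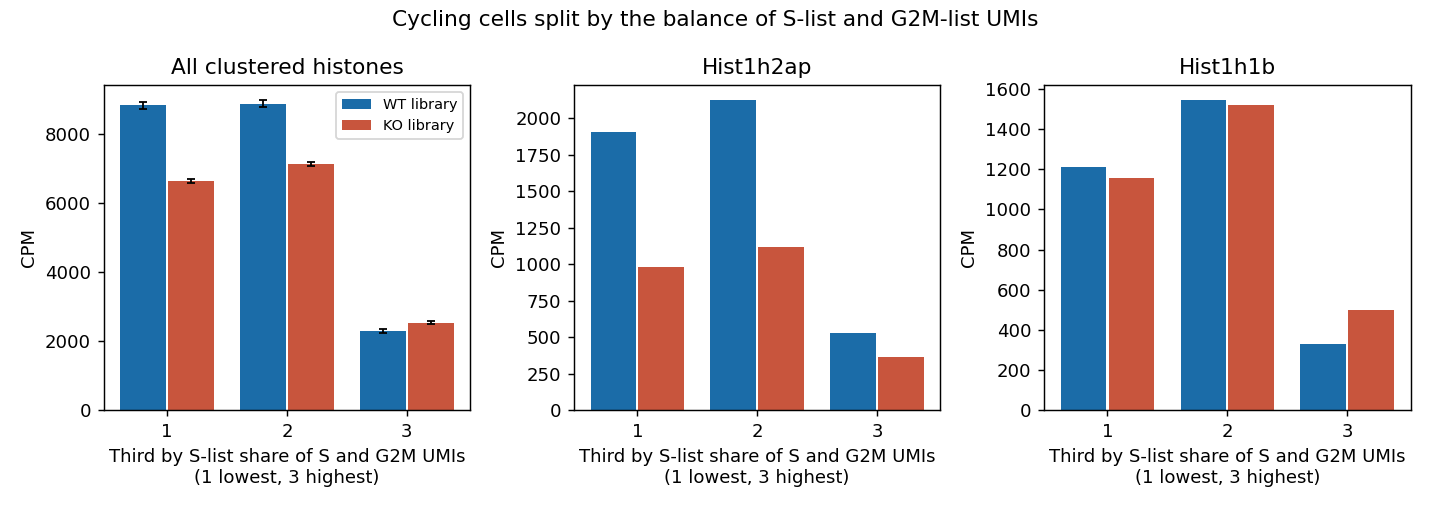
Bars (from 0, linear CPM axis) give all clustered histone genes with 95% Poisson intervals, Hist1h2ap and Hist1h1b in 3 equal groups of cycling cells ordered by the S-phase share of S-phase and G2M list UMIs, for the WT and KO library. Histone RNA is lowest in the group with the highest S-phase share in both libraries.

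Few genes that process, carry or replace these histones passed the threshold between the libraries. Over all measured genes 2.42% were higher and 7.75% lower in cycling cells, and 5.6% and 6.75% in other cells. At these shares a count of 0 among 17 genes does not set a list apart from other genes. Of 17 genes for histone mRNA processing, 0 were higher and 0 lower in the KO library in cycling cells, and likewise in other cells. The medians were 0.08 and 0.04. Slbp stood at 140 CPM in cycling cells of both libraries, and Srrt, Tut7 and Lsm1 had cycling ratios of 0.08, -0.08 and 0.28. Of 17 histone chaperone genes 0 were higher or lower in either state, with medians of 0.16 and 0.15. Npm1 (0.26) and Nasp (0.18), which carry histones, and Supt16 (0.39) were among the most abundant. The 11 replacement histone genes lie outside the clusters and mostly have poly(A) tails. Of these, 10 were measured and 1 was higher in cycling cells, H1fx, at 3.75 and 6.52 CPM (0.80), named after its values were seen. In other cells 0 were higher or lower. H2afz, an H2A variant, stood at 2079 and 1931 CPM, H3f3b at 1997 and 1792 CPM and H3f3a at 1213 and 1036 CPM, and none of these 3 passed the threshold. No member of the 20-gene S-phase list or the 20-gene G2M list was higher or lower in cycling cells, with medians of 0.19 and 0.04. In other cells 3 S-phase genes (Mcm6, Tyms and Cdc6) and 5 G2M genes (Birc5, Cdk1, Tpx2, Ccnb2 and Ccna2) were higher and 0 lower. The shares over all genes there were 5.6% higher and 6.75% lower.

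Against other cells, the lists rose with cycling to different degrees. Over all measured genes 19.5% were higher and 17.7% lower in cycling cells of the WT library, and 19.4% and 24.8% in the KO library. All 20 S-phase and all 20 G2M genes were higher in cycling cells of both libraries, and 13 and 14 of the 17 chaperone genes were. Of the processing genes 8 were higher in the WT and 11 in the KO library. In the KO library Tut7 (-0.61) and the chaperone gene Daxx (-0.76) were lower in cycling cells. Slbp was 1.17 and 1.05 on the log2 scale, against 2.61 and 2.90 for the summed clustered histones. H2afz rose by 1.67 and 1.19, whereas H3f3a and H3f3b, known to be made outside S phase, had -0.45 and -0.34 in the WT library and stayed inside the threshold.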

How the data were processed

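The deposited values are UMI counts per gene and cell barcode, whole numbers without normalization. Per the file headers the authors made these counts with Cell Ranger 5.0.0. The submitters' processing notes also list STAR and the mm10 build. Which gene annotation was used is not stated there. Overlapping or near-identical genes could share reads.

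Cells with at least 500 genes, 1000 UMIs and at most 10% mitochondrial UMIs were kept, 11153 WT and 11131 KO. Marker gates assigned cells (2 UMIs of T, B, Mono/mac, cDC or pDC markers, 1 of NK markers without the T gate, 10 of neutrophil markers), and 1718 and 1426 cells in 2 or more gates were set aside. No doublets were removed. Scrublet in scanpy 1.11.5 called 3.95% and 0.00898% of cells, so it had not worked in the KO library, and removal of the top expected share was an alternative.

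UMIs were summed per gate, state and library and scaled to CPM. Ratios carry exact conditional binomial, levels exact Poisson and shares Clopper-Pearson 95% intervals (scipy 1.17.1). The ratio intervals were checked on simulated counts. Named members are the 12 highest in cycling and 8 highest in other cells and up to 6 called each way per state, ranked by the interval bound nearest to 0, with those lacking a UMI. For each list up to 4 of the highest genes are named. Members and lists were chosen with earlier results of these data known. Stem-loops and shared stretches come from GENCODE vM21 transcripts and promoters from RefSeq. Alternatives changed the cell filter, cycling gate, depth, lineage gate, doublets, scaling, class weights, highest cells and UMI minimum.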

Additional observations from a re-analysis of the deposited data

Results flagged for a closer look

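Each result here stood out because the libraries differed in opposite directions between 2 sets of cells. None of these differences was tested, since each genotype has 1 library.

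Among cycling cells split by the S-phase share of cell-cycle UMIs, the log2 ratio of KO to WT summed histone CPM was -0.41 in the lowest, -0.32 in the middle and 0.14 in the highest group. Cycling cells that met 2 or more gates, 388 WT and 401 KO cells, gave 0.21 [0.20, 0.23], from 2897 to 3359 CPM, while cells in exactly 1 gate gave -0.29. Of these cells 116 WT and 242 KO met the T and Mono/mac gates. Hist1h2ap was lower in them (-0.33), and its share of family UMIs was 25.3% in the WT and 17.4% in the KO library. Hist1h2bl was higher in them (2.36 [1.78, 2.99]).

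Hist1h1b in other cells was below 0 in the CD4 T (-0.68), remaining T (-0.60) and B (-0.70) gates and above 0 in the cDC gate (0.85). Its CPM in cDC was 17.3 in the WT and 31.1 in the KO library.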

How the results depend on the processing

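Values are log2 ratios for cycling KO over WT, other KO over WT, WT cycling over other and KO cycling over other, in that order (-0.29, -0.57, 2.61 and 2.90 as reported), then counts of members lower and higher in cycling KO cells (8 and 1). The cycling gate at 1 UMI gave -0.10, -0.61, 2.05 and 2.56, with 2 higher. The gate at 4 UMIs gave -0.35, -0.55, 2.93 and 3.13. Cells thinned to 3000 UMIs gave -0.061, -0.64, 1.82 and 2.40, with 4 lower. No lineage gate gave 0.10, a turned direction, then -0.50, 2.12 and 2.73, with 3 lower and 3 higher. Removing top Scrublet scores gave -0.59 for other cells and 2.92 for KO cycling over other. Members out of the total with centring on the median gene gave -0.62 and 2.98 for the same results. Equal weight to each gate gave -0.43, -0.22, 3.20 and 2.87. Without the 1% of cells highest in histone UMIs, cycling KO over WT was -0.27 and WT cycling over other 2.59, with 2 higher.

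Settings added after the data were seen were without Hist1h2ap (-0.15, -0.52, 2.35 and 2.71) and without the B gate (-0.12 for other KO over WT, then 3.12 and 2.95 for cycling over other). Counts of members not named here stayed within 1.5 times. A minimum of 100 UMIs left both counts as reported. The causes were not tested.

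No paired analysis was possible because each genotype has 1 library. Depth limits members at a few UMIs, such as Hist1h2bl outside cycling cells, and intervals hold no variation between mice.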
